A study of Mus musculus with 56 samples.

Results

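Messenger RNA levels of 10 genes for matrix proteases, their inhibitors and lysyl oxidases were examined in tibialis anterior muscle of the mouse, out of 14871 genes in the deposited table. The members were chosen by name: the proteases Mmp13, Mmp2, Mmp14 and Adamts8, the metalloproteinase inhibitors Timp1 and Timp2, the serpins Serpina3n and Serpinb1a, and the lysyl oxidases Lox and Loxl2. Earlier results of these data were known at that choice. Counts of calls among the members therefore describe them and do not test them against all genes. All 10 are annotated as protein coding, and all 10 passed the filter on low values, a mean of at least 1 count per M reads (CPM). Mmp13 passed it through 1 group alone, HOMO mKO AAV at 7 dpi. It averaged 42.5 CPM there and 0.858 CPM over the other 51 samples, so under this filter it had to differ between groups. The study is a bulk RNA sequencing of the titin mechanical knock-out (mKO), in which titin, the giant elastic protein of the sarcomere, carries a cleavage site for TEV protease, an enzyme from a plant virus, and is cut when that protease is supplied. Muscles of homozygous (HOMO mKO), heterozygous (HET mKO) and wild-type (WT) mice received either an adeno-associated virus (AAV) carrying a GFP-TEV protease fusion or saline, and were taken at 3, 7 or 21 days after the injection (dpi).

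The groups held 4, 5 and 4 HOMO mKO muscles with AAV at 3, 7 and 21 dpi, set against 4, 4 and 4 HOMO mKO muscles with saline. At 7 dpi there were 4 HET mKO muscles with AAV and 4 with saline. WT muscles, whose titin has no cleavage site, numbered 5, 4 and 4 with AAV and 3, 3 and 4 with saline at 3, 7 and 21 dpi. Every AAV group carried the protease and GFP together, so AAV, GFP and protease cannot be told apart within a genotype. HET mKO muscles keep 1 titin allele without the site. Every saline group had been injected too, and no group was left uninjected. The labels give no age and no promoter for the vector, and none says whether each muscle of a group is from an animal of its own. P-values therefore measure the spread between samples, part of which may be technical.

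Matrix metalloproteinases are secreted or membrane-bound zinc enzymes that cut collagens and other components of the extracellular matrix, and tissue inhibitors of metalloproteinases (TIMPs) bind and block them. Serpins are decoy inhibitors of serine proteases, which include the neutrophil and plasminogen-pathway enzymes. Lysyl oxidases act in the opposite sense on the same fibres: they oxidise lysines of collagen and elastin so that the fibres become cross-linked. In injured skeletal muscle, fibroblasts and infiltrating leukocytes are known producers of many of these proteins.

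Values are normalised read counts on a per-million scale, as the authors deposited them, and a library without any read of a gene carries a small value above 0. Libraries held 6.9 to 27.18 M recovered reads, with a median of 21.69 M. The shallowest was HOMO mKO AAV 7 dpi replicate 2, and the next held 14.98 M. Reads of the vector transgene served as the check of the labels: saline libraries held 0 to 6 reads, against 56 or more in each AAV library. The summed level of 10 fast-fibre markers ranged between 58414 and 164785 over all 56 samples, so the defining transcripts of fast muscle were present in each. Transgene levels differed between genotypes: at 7 dpi they averaged 22.4 ± 5.39 in HOMO mKO, 86.6 ± 24.1 in HET mKO and 240 ± 68.3 in WT AAV muscles (SD, n = 5, 4 and 4). The part of transgene level in the differences between genotypes below was not tested. Changes are log2 differences of (value + 1) from limma, with the standard error (SE) of the fit, and calls are those with p under 0.05 after Benjamini-Hochberg adjustment over 13017 genes. This scale understates the changes of low genes, and a difference between 2 responses depends on it where 1 of them lies below about 1.

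In HOMO mKO muscle with AAV, 5 of the 10 genes rose at 3 dpi, 8 at 7 dpi and 7 at 21 dpi, and none fell on any of these days by limma (6, 8 and 7 had an unadjusted p under 0.05, in either direction). The share of all tested genes called in either direction was 34.6% at 3 dpi, 43.1% at 7 dpi and 59.3% at 21 dpi, and the share called higher was 17.4%, 20.6% and 29.7%. In HET mKO muscle with AAV 8 of the 10 rose at 7 dpi, when 40.4% of all tested genes were called and 19.6% were called higher. WT muscle gave 0 calls at 3 dpi and 0 at 7 dpi, where 0.0% of all tested genes were called on either day. Of the 10 genes, 0 at 3 dpi and 1 at 7 dpi had an unadjusted p under 0.05 in limma, and edgeR, DESeq2 and voom also called 0 on both days. The HOMO mKO count at 7 dpi includes Mmp13, and 7 of the 9 others rose. At 21 dpi, 8 of the 10 rose in WT AAV muscle, when 40.9% of all tested genes were called and 19.7% were called higher. The median log2 change of the 10 at 7 dpi was 2.28 in HOMO mKO, 1.10 in HET mKO and 0.16 in WT muscle, beside medians over all tested genes of -0.01, -0.01 and 0.00. The HOMO mKO median includes Mmp13 too, which passed the filter on low values only through that group and is raised by it. The rest of the description follows the proteases, then their inhibitors, then the cross-linking enzymes.

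**Figure D1:**
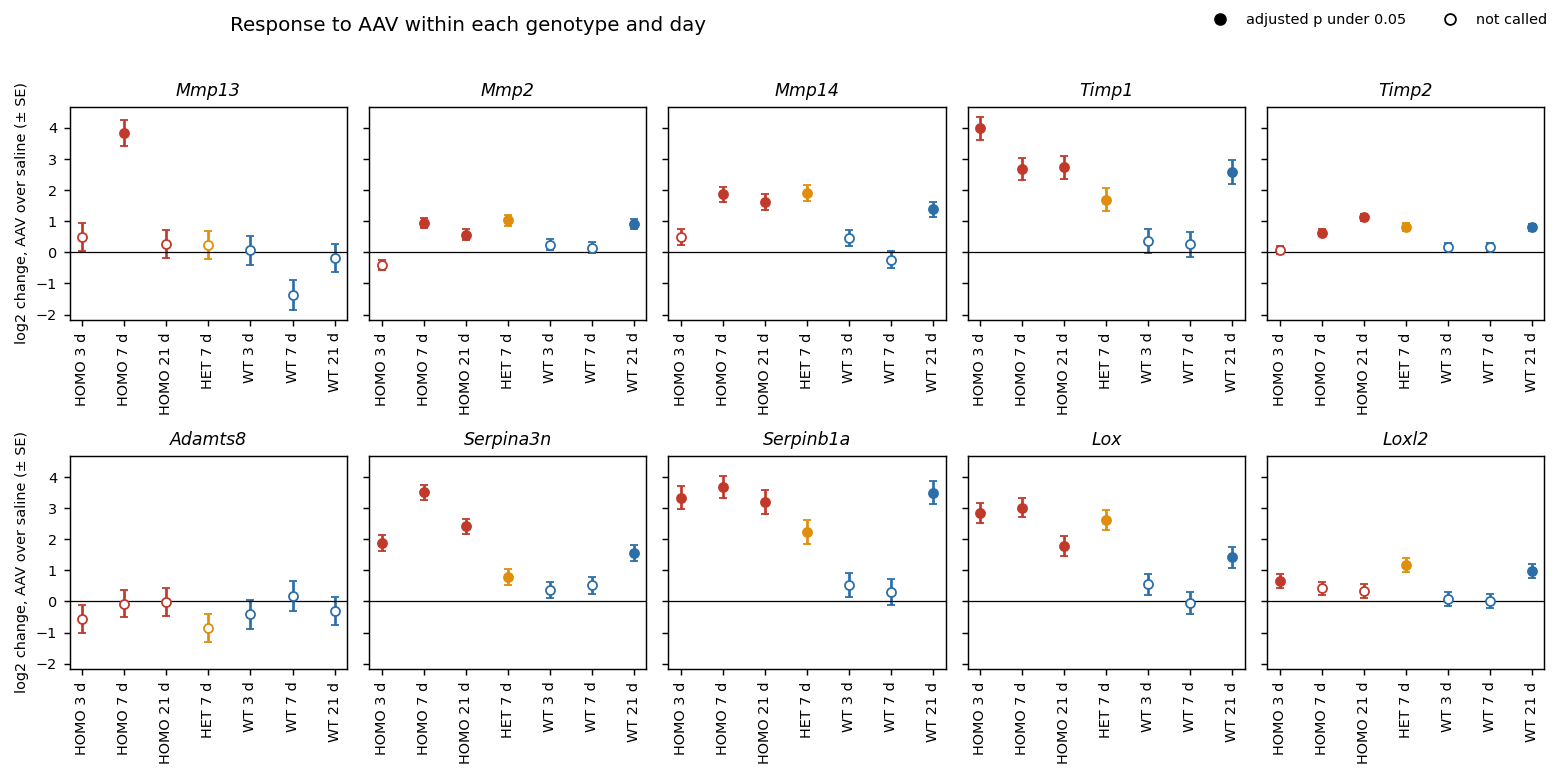
Response to AAV of each of the 10 genes within a genotype and day, as the log2 change of AAV over saline ± SE from limma on the vertical axis; filled points passed an adjusted p of 0.05. WT points at 3 and 7 dpi are open for all 10 genes, while Mmp13 has 1 filled point, for HOMO mKO at 7 dpi (3.84).

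Mmp13, collagenase-3, cleaves fibrillar collagen and lies on chromosome 9 (GRCm38, 7272514 to 7283331, plus strand). It was near the detection floor in most groups and had its highest mean in HOMO mKO AAV muscle at 7 dpi. At 7 dpi it stood at 5.75, 29.5, 65.9, 15.0 and 62.7 normalised read counts in the 5 HOMO mKO AAV muscles, against 4.01, 0.214, 0.282 and 0.584 in the 4 HOMO mKO saline muscles. The groups did not overlap, and the AAV muscles spread widely, with 165 reads in replicate 1 and 1661 in replicate 5. HET mKO muscles at the same time had 0.462, 1.18, 0.187 and 0.102 with AAV and 0.245, 0.445, 0.0238 and 0.169 with saline, and these groups overlapped. WT muscles had 0.21, 0.0247, 0.0274 and 0.262 with AAV and 0.473, 1.29 and 6.37 with saline, the AAV muscles all below the saline ones, though limma did not call the difference (log2 -1.37 ± 0.48, adjusted p = 1.0). Mmp13 rose by 3.84 ± 0.43 on the log2 scale in HOMO mKO muscle at 7 dpi (limma, adjusted p = 2.35e-09, and 2.29e-09 in the fit with no filter on low values), a ratio of group means of 28.1. At 3 dpi the 4 HOMO mKO AAV muscles had 0.446, 0.833, 0.641 and 0.221, against 0.0791, 0.151, 0.0714 and 0.0269 with saline, which was not called by limma (0.49 ± 0.45, adjusted p = 0.418) and was called by DESeq2 on the recovered reads (3.12, adjusted p = 0.0255). By 21 dpi the ranges overlapped, with 0.913 to 2.98 in HOMO mKO AAV and 0.198 to 2.05 in HOMO mKO saline muscles (0.27 ± 0.45, adjusted p = 0.628).

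Differences between these responses were tested directly. The HOMO mKO response of Mmp13 at 7 dpi exceeded the WT response by 5.22 ± 0.65 on the log2 scale (limma, adjusted p = 4.54e-07) and the HET mKO response by 3.60 ± 0.62 (adjusted p = 0.00017). Over all alternatives that tested Mmp13, the first of these differences lay between 3.21 and 9.63 and was called each time. With a mean of 4.58 CPM, Mmp13 was not tested under the minimum of 5 CPM. Within HOMO mKO muscle, the response of Mmp13 at 7 dpi exceeded that at 3 dpi by 3.35 ± 0.62 (limma, adjusted p = 0.000449). The size of that difference rests on the pseudocount, since every 3 dpi value was below 1: the ratios of group means were 28.1 at 7 dpi and 6.52 at 3 dpi, and the same difference was 1.81 with edgeR, 1.73 with DESeq2 and 2.42 with voom. At 21 dpi the response was smaller than at 7 dpi (-3.58 ± 0.62, limma, adjusted p = 8.35e-05). The count models differed here, where saline levels rest on few reads. For HOMO mKO minus HET mKO the call was lost with edgeR (adjusted p = 0.265), DESeq2 (0.134) and voom (0.67), and for 7 dpi minus 3 dpi with edgeR (0.715), DESeq2 (0.569) and voom (0.788). For 21 dpi minus 7 dpi voom alone lost it (0.0846). The HET mKO response minus that of WT was 1.61 ± 0.66 and not called by limma (adjusted p = 0.0754), but was called without WT saline 7 dpi replicate 1 (0.0316) or HOMO mKO AAV 7 dpi replicate 1 (0.0398), and by edgeR (0.00749) and DESeq2 (0.00161), the WT saline muscles being above the WT AAV ones.

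The promoters of 3 members are shown because their courses in HOMO mKO AAV muscle differed: the mean level was highest at 7 dpi for Mmp13 and Serpina3n and at 3 dpi for Timp1. RefSeq promoter sequences (build GRCm38.p6) were found for 5 of the 10 members, namely Mmp13, Mmp14, Timp1, Timp2 and Serpina3n. Each line holds the 250 bases before the annotated start, 5′ to 3′ on the gene's strand, at chr9:7272264-7272513 (plus) for Mmp13, chrX:20869916-20870165 (plus) for Timp1 and chr12:104406458-104406707 (plus) for Serpina3n. Capitals mark matches to 4 motifs searched on both strands: the AP-1 motif TGANTCA, the TATA box TATAAA, a STAT motif TTCNNNGAA and the Runx motif TGTGGT, whose reverse complement is ACCACA.
Mmp13: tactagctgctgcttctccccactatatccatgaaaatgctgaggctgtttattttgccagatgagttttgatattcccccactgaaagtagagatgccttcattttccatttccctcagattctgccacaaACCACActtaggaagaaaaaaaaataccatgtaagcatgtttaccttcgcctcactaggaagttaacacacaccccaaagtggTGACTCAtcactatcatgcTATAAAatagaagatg
Timp1: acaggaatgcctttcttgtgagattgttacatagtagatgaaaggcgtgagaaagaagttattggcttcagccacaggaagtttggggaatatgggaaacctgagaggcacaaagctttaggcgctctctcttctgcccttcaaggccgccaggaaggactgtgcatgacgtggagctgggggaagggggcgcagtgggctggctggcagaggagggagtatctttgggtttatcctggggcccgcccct
Serpina3n: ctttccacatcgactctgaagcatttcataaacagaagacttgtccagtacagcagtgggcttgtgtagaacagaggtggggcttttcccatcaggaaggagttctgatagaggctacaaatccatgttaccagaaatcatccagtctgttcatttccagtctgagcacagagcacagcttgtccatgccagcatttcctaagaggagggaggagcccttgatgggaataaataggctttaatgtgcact
Reading back from the start, the Mmp13 window held TGACTCA at bases 35 to 29, TATAAA at bases 16 to 11 and ACCACA at bases 118 to 113. None of these matches overlap. The Mmp14 window held ACCACA at bases 114 to 109 and no other match. The Timp1, Timp2 and Serpina3n windows held none of the 4 motifs in these letters. Among 32851 mouse promoter windows of the same length, 6.75% held the AP-1 motif, 12.4% the TATA box, 7.02% the STAT motif and 14% the Runx motif. A match describes these letters only.

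Mmp2 and Mmp14 are functional partners: Mmp14 is a membrane-anchored collagenase that activates the gelatinase Mmp2 at the cell surface, with Timp2 acting as the bridge between them. Mmp14 (chromosome 14, 54431612 to 54445364, plus strand) had 45.5, 46.5, 32.8, 47.0 and 35.7 normalised read counts in HOMO mKO AAV muscles at 7 dpi, against 11.7, 10.6, 11.6 and 8.46 in HOMO mKO saline muscles. HET mKO muscles at 7 dpi had 20.4, 35.8, 21.8 and 28.3 with AAV, against 9.5, 5.01, 4.74 and 6.25 with saline. In both genotypes every AAV muscle lay above every saline muscle. The changes were of like size, 1.87 ± 0.24 in HOMO mKO (limma, adjusted p = 3.55e-08) and 1.91 ± 0.25 in HET mKO muscle (adjusted p = 4.89e-08), and their difference was -0.04 ± 0.34 (adjusted p = 0.977). WT AAV muscles at 7 dpi had 6.32 to 9.44 and WT saline muscles 7.77 to 10.3, so that the HOMO mKO response exceeded the WT response by 2.10 ± 0.36 (adjusted p = 8.58e-05) and the HET mKO response exceeded it by 2.15 ± 0.37 (adjusted p = 4.18e-05). At 3 dpi Mmp14 was not called in HOMO mKO muscle (0.49 ± 0.25, limma, adjusted p = 0.12), although it was without HOMO mKO AAV 3 dpi replicate 4 (0.68, adjusted p = 0.0347) and with per-library weights (0.63, adjusted p = 0.0117). At 21 dpi it had 55.0, 26.8, 28.8 and 15.6 in HOMO mKO AAV muscles, against 7.61, 9.0, 7.78 and 10.3 with saline, and rose by 1.62 ± 0.25 (adjusted p = 3.32e-07). WT AAV muscles on that day had 22.4, 13.7, 34.9 and 40.3, against 9.29, 8.82, 10.8 and 8.23 with saline, and Mmp14 rose there too (1.39 ± 0.25, limma, adjusted p = 1.96e-05). The groups were apart in both genotypes, and the HOMO mKO response minus that of WT was 0.24 ± 0.35 (adjusted p = 0.749).

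Mmp2 (chromosome 8, 92827291 to 92853420, plus strand) was well expressed in saline muscle and was not higher with AAV at 3 dpi. In HOMO mKO AAV muscles at 3 dpi it had 32.2, 50.6, 35.8 and 32.8 normalised read counts, against 57.2, 46.2, 49.5 and 46.9 with saline. Replicate 2 of the AAV muscles lay within the saline range and the other three below it. This difference of -0.41 ± 0.17 was not called by limma (adjusted p = 0.0516), and was called without HOMO mKO AAV 3 dpi replicate 2 (-0.55, adjusted p = 0.0132). Leaving out any of 10 other single libraries, all from other groups, gave adjusted p of 0.0325 to 0.0497. At 7 dpi Mmp2 had 129, 104, 68.3, 112 and 85.3 in HOMO mKO AAV muscles, against 50.3, 48.1, 54.3 and 47.9 with saline, and 65.6, 87.3, 81.1 and 94.5 in HET mKO AAV muscles, against 45.7, 35.9, 38.5 and 37.9 with saline. No AAV muscle of either genotype overlapped its saline muscles, and the gene rose by 0.95 ± 0.16 in HOMO mKO (limma, adjusted p = 5.75e-06) and by 1.03 ± 0.17 in HET mKO muscle (adjusted p = 3.27e-06). The HOMO mKO response at 7 dpi exceeded that at 3 dpi by 1.36 ± 0.23 (limma, adjusted p = 0.00015). It exceeded the WT response at 7 dpi by 0.80 ± 0.24 (adjusted p = 0.016), and this call was lost without WT saline 7 dpi replicate 3 (0.72, adjusted p = 0.0526).

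**Figure D2:**
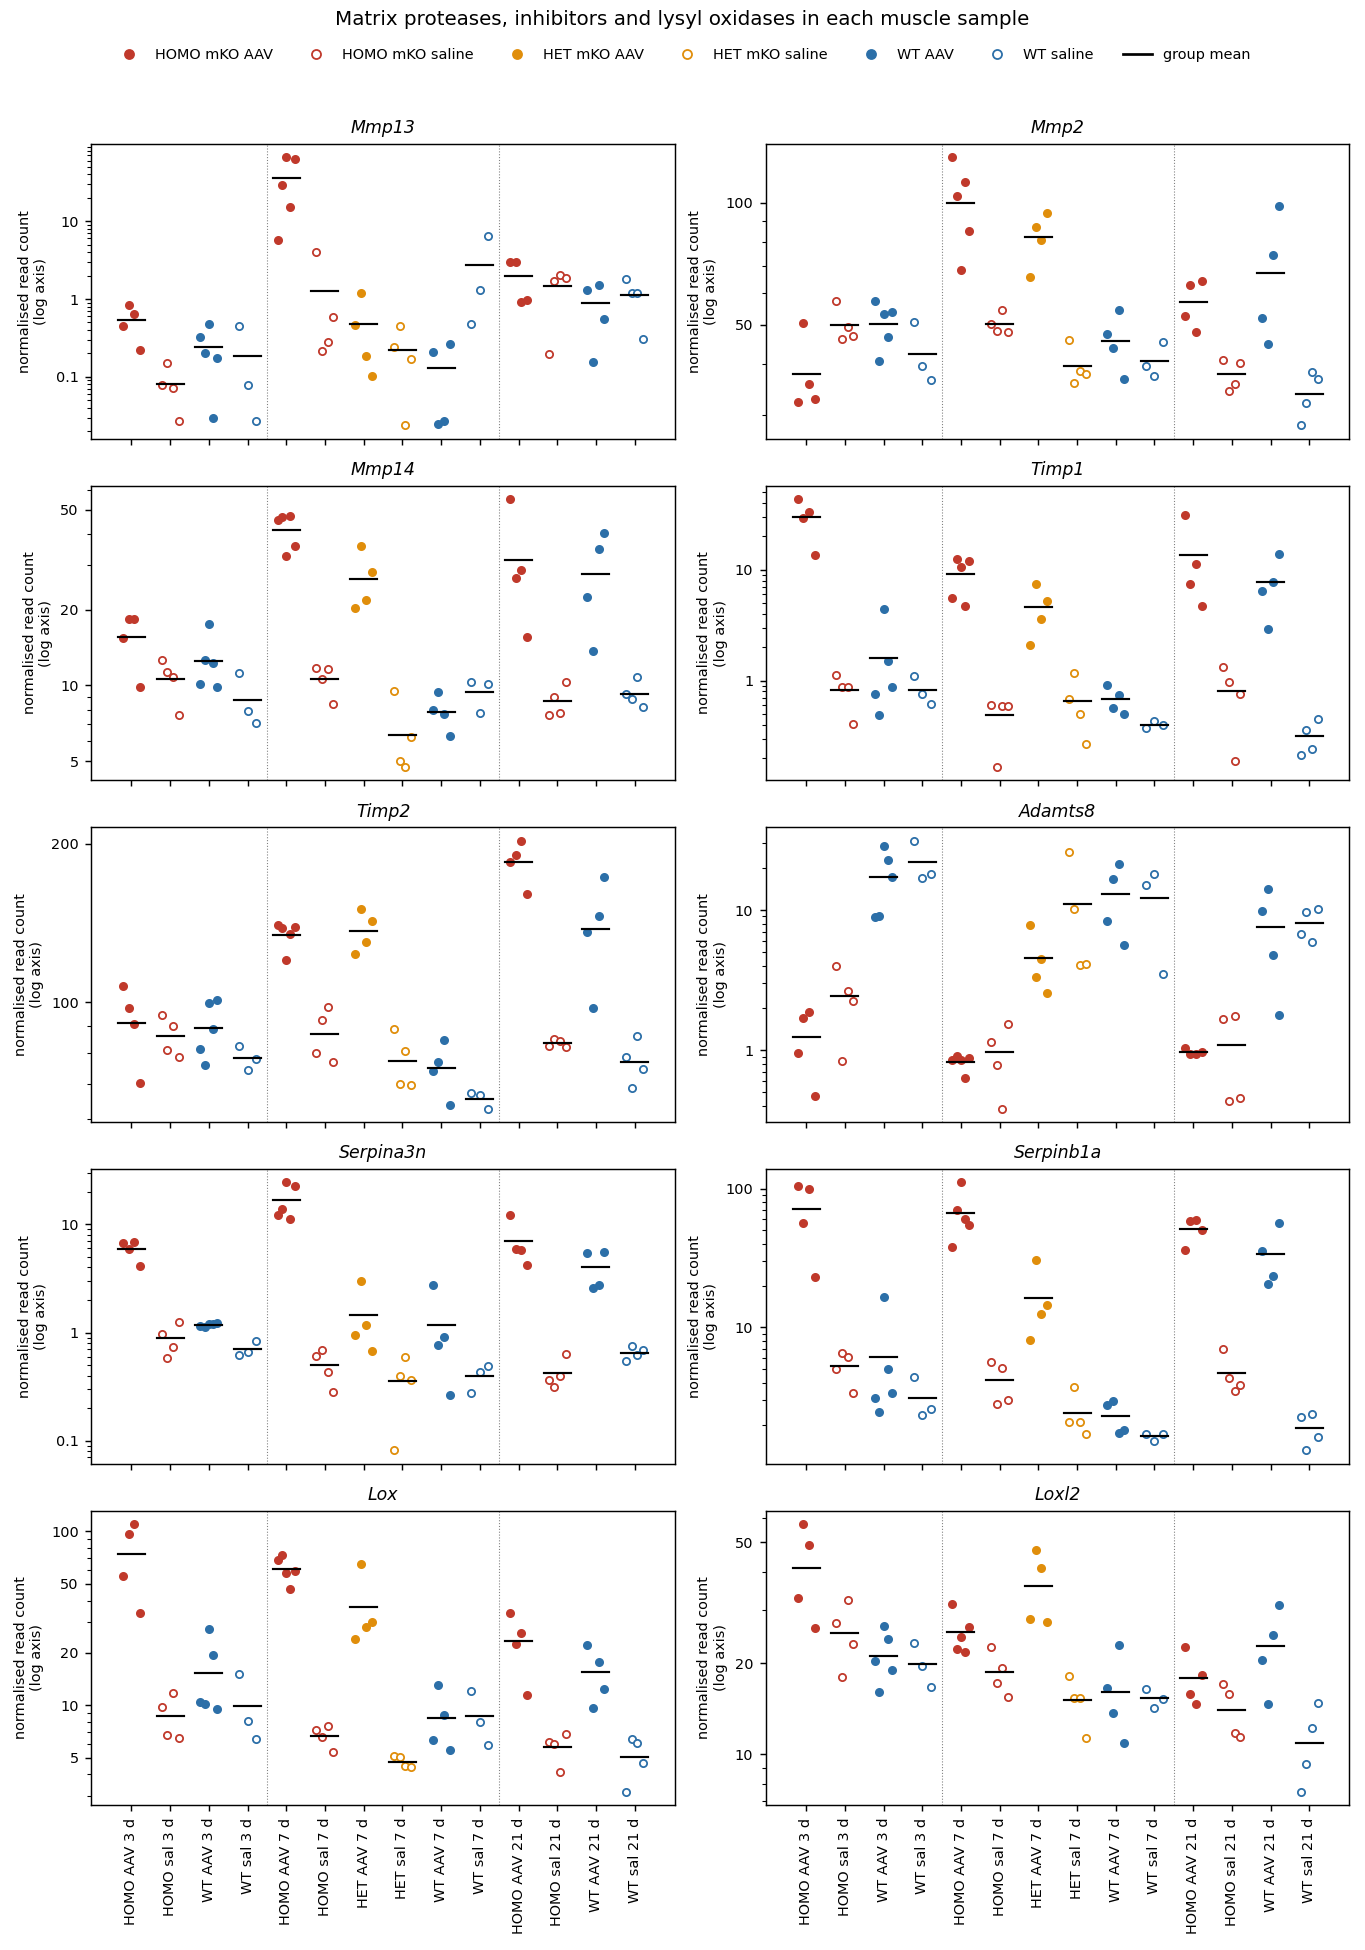
Normalised read counts (log axis) of the 10 genes in each of the 56 muscles, grouped by genotype, injection (AAV filled, saline open) and day; each point is 1 muscle and bars are group means. Timp1 is highest in HOMO mKO AAV muscles at 3 dpi, Mmp13 in HOMO mKO AAV muscles at 7 dpi, and Adamts8 is low in HOMO mKO muscles with either injection.

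Timp1 (chromosome X, 20870166 to 20874735, plus strand), a secreted inhibitor of most metalloproteinases, was low in all saline groups and rose in HOMO mKO AAV muscle on every day. The gene lies within Syn1, which is on the opposite strand and was not analysed here. At 3 dpi the HOMO mKO AAV muscles had 43.5, 29.7, 33.1 and 13.5 normalised read counts, against 1.13, 0.884, 0.88 and 0.403 in HOMO mKO saline muscles, a ratio of group means of 36.3. WT AAV muscles on that day had 0.765, 0.489, 4.42, 1.5 and 0.877, against 1.1, 0.761 and 0.617 in WT saline muscles. Of the WT muscles, AAV replicate 3 was the highest, as it also was for Serpinb1a, Lox and Mmp14, and the WT groups overlapped. Timp1 rose by 3.99 ± 0.37 in HOMO mKO muscle at 3 dpi (limma, adjusted p = 7.57e-11), more than in WT muscle by 3.64 ± 0.54 (adjusted p = 2.61e-05, 0.0728 with voom).

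In HOMO mKO AAV muscles at 7 dpi Timp1 had 5.58, 12.5, 10.6, 4.75 and 12.1, against 0.603, 0.166, 0.589 and 0.584 with saline, and in HET mKO AAV muscles 2.09, 7.43, 3.63 and 5.22, against 0.68, 1.18, 0.501 and 0.265 with saline. Both pairs of groups were apart. The changes were 2.69 ± 0.35 in HOMO mKO (limma, adjusted p = 7.93e-08) and 1.69 ± 0.37 in HET mKO muscle (adjusted p = 0.000313), and their difference of 1.00 ± 0.52 was not called (adjusted p = 0.391). The HOMO mKO response at 7 dpi exceeded that of WT by 2.43 ± 0.54 (adjusted p = 0.00134, 0.292 with voom), whereas the HET mKO response did not pass against WT (1.43 ± 0.55, adjusted p = 0.0573). It did pass in 8 of the fits that left out 1 library: HET mKO AAV 7 dpi replicate 1 (0.0255), HET mKO saline 7 dpi replicate 2 (0.0465), HOMO mKO AAV 3 dpi replicate 4 (0.0458), HOMO mKO AAV 21 dpi replicate 1 (0.0292) or 4 (0.0419), WT AAV 3 dpi replicate 3 (0.0412), or WT AAV 21 dpi replicate 2 (0.0454) or 4 (0.048). Of the other settings, a pseudocount of 0.25 (0.0468), the compared groups alone (0.00616) and per-library weights (0.0029) passed too. By 21 dpi the WT AAV muscles had 6.5, 2.93, 7.71 and 13.96, against 0.215, 0.362, 0.242 and 0.448 with saline, beside 31.5, 7.5, 11.2 and 4.68 in HOMO mKO AAV muscles and 1.33, 0.977, 0.187 and 0.763 with saline. The changes on that day were 2.74 ± 0.37 in HOMO mKO and 2.58 ± 0.37 in WT muscle (limma, adjusted p = 2.68e-08 and 4.42e-07), with a difference of 0.15 ± 0.53 (adjusted p = 0.901). The highest HOMO mKO value, 31.5 in replicate 1, came from the muscle with the lowest transgene level of that group, 127.

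Timp2 (chromosome 11, 118301069 to 118355740, minus strand), the inhibitor that also serves in Mmp2 activation, was abundant in every sample. At 3 dpi it had 70.3 to 107 normalised read counts in HOMO mKO AAV muscles and 78.6 to 94.4 with saline, which was not called (0.07 ± 0.12, limma, adjusted p = 0.665). At 7 dpi it had 140, 138, 120, 135 and 139 in HOMO mKO AAV muscles, against 80.2, 92.7, 98.1 and 76.9 with saline, and rose by 0.63 ± 0.11 (adjusted p = 1.23e-05). At 21 dpi it had 184, 191, 203 and 161 in HOMO mKO AAV muscles, against 82.6, 85.2, 84.4 and 82.2 with saline, a ratio of group means of 2.21 and a change of 1.13 ± 0.12 (adjusted p = 3.47e-11). Each of these later pairs of groups was fully apart. WT AAV muscles at 21 dpi spread more widely, with 136, 97.5, 146 and 173, against 78.8, 68.8, 86.3 and 74.6 with saline, and Timp2 rose there by 0.81 ± 0.12 (limma, adjusted p = 4.24e-07). At 21 dpi HOMO mKO minus WT gave 0.32 ± 0.16 and was not called (adjusted p = 0.265). Timp2 was the 1 member whose HOMO mKO response was called larger at 21 dpi than at 7 dpi (0.50 ± 0.16, limma, adjusted p = 0.0293), and the larger response at 7 dpi than at 3 dpi was called too (0.55 ± 0.16, adjusted p = 0.028). The call of 21 dpi over 7 dpi was lost without HOMO mKO saline 7 dpi replicate 2 (adjusted p = 0.0588) or 3 (0.0745), HOMO mKO AAV 7 dpi replicate 3 (0.0615), or HOMO mKO AAV 21 dpi replicate 1 (0.0545) or 3 (0.0704). That of 7 dpi over 3 dpi was lost without HOMO mKO saline 3 dpi replicate 1 (0.0674) or 3 (0.0555), HOMO mKO AAV 3 dpi replicate 4 (0.0928), or HOMO mKO saline 7 dpi replicate 1 (0.0606) or 4 (0.0691). In HET mKO muscle at 7 dpi Timp2 rose by 0.82 ± 0.12 (adjusted p = 2.75e-07), more than in WT muscle by 0.64 ± 0.17 (adjusted p = 0.00629). HOMO mKO minus WT gave 0.45 ± 0.17 on that day, just above the threshold (adjusted p = 0.0517). Leaving out any of 11 single libraries brought it below, with the smallest adjusted p, 0.0267, without WT AAV 21 dpi replicate 2.

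In HOMO mKO muscle Timp3 and Timp4 were lower with AAV, and the make-up of the family differed from that of saline muscles. Timp3, the matrix-bound TIMP, fell in HOMO mKO AAV muscle at 3, 7 and 21 dpi (log2 -0.88, -0.74 and -0.58, limma, adjusted p = 0.00013, 0.000374 and 0.00402). Timp4, a TIMP known from heart and skeletal muscle, fell on the same days (-1.62, -1.62 and -1.92, adjusted p = 0.00321, 0.00137 and 0.000188). In WT AAV muscle at 7 dpi neither was called (0.22 ± 0.19 for Timp3 and -0.05 ± 0.47 for Timp4, limma, adjusted p = 1.0 each). Lower levels were not confined to HOMO mKO muscle. In HET mKO muscle at 7 dpi Timp3 had 89.7 to 121 with AAV, against 182 to 198 with saline. Timp4 had 6.85 to 16.7 there, against 21.4 to 31.8. In WT muscle at 21 dpi Timp3 had 61.4 to 89.6 with AAV, against 110 to 153 with saline. Timp4 had 4.09 to 20.3 there, against 22.4 to 34.5. Per kilobase of exon, Timp1 made up 48.4 ± 11.2% of the summed level of the 4 TIMPs in HOMO mKO AAV muscles at 3 dpi, against 2.17 ± 0.8% with saline (SD, n = 4 each). Its share was 18.7 ± 6.81% in HOMO mKO AAV muscles at 7 dpi, against 1.37 ± 0.619% with saline (n = 5 and 4), and 19.1 ± 13.9% at 21 dpi, against 2.26 ± 1.41% (n = 4 each). Timp2 then held the larger part, 64.0 ± 4.22% in HOMO mKO AAV muscles at 7 dpi, against 55.4 ± 2.91% with saline, and 64.3 ± 7.83% at 21 dpi, against 51.8 ± 3.41%. Timp3 held 13.5 ± 5.79% in HOMO mKO AAV muscles at 3 dpi, against 35.7 ± 2.21% with saline. The summed level of the 4 genes, per kilobase, was 67.1 ± 15.9 in HOMO mKO AAV muscles at 3 dpi, against 43.0 ± 1.51 with saline, and 74.6 ± 11.9 at 21 dpi, against 41.6 ± 2.58.

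**Figure D3:**
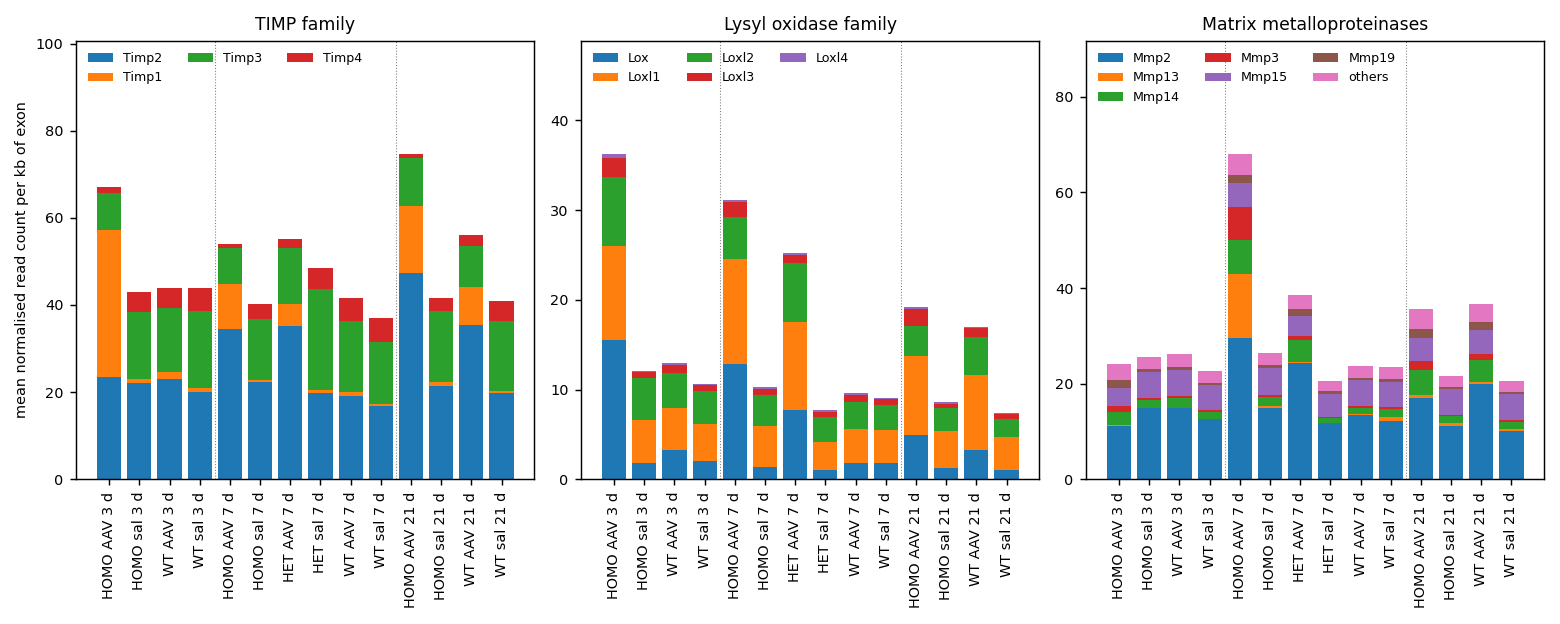
Mean normalised read count per kilobase of exon (linear axis, stacked by gene) of the TIMPs, the lysyl oxidases and the matrix metalloproteinases in each of the 14 groups. The orange Timp1 block is thickest in HOMO mKO AAV muscles at 3 dpi (33.7 per kilobase), and the orange Mmp13 block stands out in HOMO mKO AAV muscles at 7 dpi (13.4 per kilobase).

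Among metalloproteinases the corresponding sum was 67.9 ± 6.19 per kilobase in HOMO mKO AAV muscles at 7 dpi, against 26.4 ± 1.41 with saline (SD, n = 5 and 4), and 38.5 ± 5.18 in HET mKO AAV muscles, against 20.6 ± 1.76 with saline (n = 4 each). At 3 dpi, by contrast, it was 24.2 ± 4.87 in HOMO mKO AAV and 25.6 ± 2.16 in HOMO mKO saline muscles. Mmp13 contributed 13.4 ± 10.3 per kilobase to the HOMO mKO AAV sum at 7 dpi, against 0.181 ± 0.183 in HET mKO AAV muscles. Mmp2 remained the largest single component, with 29.6 ± 7.04 in HOMO mKO and 24.4 ± 3.66 per kilobase in HET mKO AAV muscles.

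Serpina3n (chromosome 12, 104406729 to 104414329, plus strand) is a secreted inhibitor of serine proteases such as elastase and granzyme B, and is raised as an acute-phase gene in many injured tissues. It belongs to a cluster of near-identical Serpina3 genes among which the counting can divide reads, so its values are uncertain to that extent. At 7 dpi it had 12.3, 13.8, 24.5, 11.1 and 22.7 normalised read counts in HOMO mKO AAV muscles, against 0.603, 0.689, 0.435 and 0.279 with saline, a ratio of group means of 33.7. HET mKO muscles had 0.946, 3.01, 1.18 and 0.671 with AAV, against 0.0816, 0.393, 0.596 and 0.362 with saline. In each genotype the AAV muscles lay above the saline muscles, and the lowest HOMO mKO AAV value, 11.1, was above the highest HET mKO AAV value, 3.01. The gene rose by 3.51 ± 0.24 in HOMO mKO muscle (limma, adjusted p = 4.86e-15) and by 0.78 ± 0.25 in HET mKO muscle (adjusted p = 0.0121). The HET mKO call was lost without HET mKO AAV 7 dpi replicate 2 (0.51, adjusted p = 0.12), and the HET mKO response was not distinguished from that of WT (0.26 ± 0.37, adjusted p = 0.666). The HOMO mKO response exceeded that of HET mKO by 2.73 ± 0.35 (limma, adjusted p = 1.19e-06, 0.202 with voom) and that of WT by 3.00 ± 0.36 (adjusted p = 3.73e-07).

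Serpina3n was already raised at 3 dpi in HOMO mKO AAV muscles, which had 6.78, 5.88, 6.89 and 4.14, against 0.975, 0.582, 0.738 and 1.26 with saline (1.87 ± 0.25, limma, adjusted p = 2.92e-07). At 21 dpi it had 12.3, 5.88, 5.82 and 4.21 in HOMO mKO AAV muscles, against 0.368, 0.312, 0.394 and 0.632 with saline, and 5.45, 2.58, 2.74 and 5.54 in WT AAV muscles, against 0.549, 0.751, 0.618 and 0.683 with saline. Neither AAV group overlapped its saline group, with changes of 2.41 ± 0.25 in HOMO mKO and 1.56 ± 0.25 in WT muscle (limma, adjusted p = 5.64e-11 and 3.55e-06), and the difference of 0.85 ± 0.36 was not called (adjusted p = 0.165, and 0.0484 without HOMO mKO AAV 21 dpi replicate 4). The HOMO mKO response exceeded its 3 dpi size at 7 dpi by 1.65 ± 0.35 (adjusted p = 0.00222, 0.155 with voom). At 21 dpi it was below its 7 dpi size (-1.10 ± 0.35, adjusted p = 0.0275), a call lost under 6 other settings and without HOMO mKO saline 7 dpi replicate 4 (adjusted p = 0.0574), HOMO mKO AAV 7 dpi replicate 3 (0.0687) or 5 (0.0587), HOMO mKO saline 21 dpi replicate 4 (0.058), or HOMO mKO AAV 21 dpi replicate 3 (0.056) or 4 (0.0502).

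Serpinb1a (chromosome 13, 32842092 to 32851185, minus strand), an intracellular inhibitor of neutrophil elastase and cathepsin G, has close paralogs too, so its values carry the same uncertainty. At 3 dpi it had 104, 56.8, 99.7 and 23.2 normalised read counts in HOMO mKO AAV muscles, against 5.04, 6.53, 6.16 and 3.36 with saline. The lowest AAV value stood well above the highest saline value. It rose by 3.34 ± 0.38 at 3 dpi (limma, adjusted p = 7.11e-09), by 3.67 ± 0.36 at 7 dpi (adjusted p = 1.39e-10) and by 3.20 ± 0.38 at 21 dpi (adjusted p = 9.27e-10), with no time difference called. HET mKO AAV muscles at 7 dpi had 8.07, 30.4, 12.6 and 14.5, against 2.1, 3.75, 2.07 and 1.71 with saline (2.23 ± 0.38, limma, adjusted p = 6.6e-06). The HET mKO response exceeded that of WT by 1.93 ± 0.56 (adjusted p = 0.0108, 0.257 with voom), and the HOMO mKO response exceeded that of WT by 3.36 ± 0.54 (adjusted p = 3.73e-05, 0.0519 with voom). WT AAV muscles reached 35.6, 20.4, 23.4 and 56.3 at 21 dpi, against 2.27, 1.31, 2.39 and 1.63 with saline, a change of 3.50 ± 0.38 (limma, adjusted p = 1.06e-09). In saline muscle the gene had values in HOMO mKO samples of 5.68, 2.83, 5.14 and 3.02 at 7 dpi, against 1.72, 1.52 and 1.7 in WT samples. These groups did not overlap, yet limma called the difference neither at 7 dpi (0.92, adjusted p = 0.323) nor at 21 dpi (0.95, adjusted p = 0.196, but 0.0336 with per-library weights and 0.0107 with the compared groups alone).

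Lox (chromosome 18, 52516067 to 52529867, minus strand) is the founding lysyl oxidase. At 3 dpi it had 55.2, 96.1, 110 and 34.0 normalised read counts in HOMO mKO AAV muscles, against 9.73, 6.75, 11.8 and 6.48 with saline. At 7 dpi it had 68.6, 73.5, 57.7, 46.4 and 59.0 in HOMO mKO AAV muscles, against 7.17, 6.53, 7.6 and 5.36 with saline, and 24.2, 65.1, 28.2 and 30.0 in HET mKO AAV muscles, against 5.09, 5.01, 4.46 and 4.41 with saline. All of these AAV groups lay above their saline groups without overlap. Lox rose by 2.85 ± 0.32 in HOMO mKO muscle at 3 dpi (limma, adjusted p = 7.77e-09), by 3.01 ± 0.31 at 7 dpi (adjusted p = 3.08e-10) and by 2.61 ± 0.32 in HET mKO muscle at 7 dpi (adjusted p = 1.57e-08), ratios of group means of 8.5, 9.16 and 7.78. The difference between HOMO mKO and HET mKO responses was 0.40 ± 0.45 (adjusted p = 0.782). Against WT the HOMO mKO response was larger at 3 dpi by 2.29 ± 0.47 (limma, adjusted p = 0.00145) and at 7 dpi by 3.07 ± 0.47 (adjusted p = 1.85e-05). By 21 dpi Lox had 33.7, 22.5, 26.0 and 11.5 in HOMO mKO AAV muscles, against 6.14, 5.96, 4.13 and 6.82 with saline, and 22.2, 9.59, 17.8 and 12.4 in WT AAV muscles, against 3.18, 6.37, 6.05 and 4.64 with saline. The changes then were 1.78 ± 0.32 and 1.41 ± 0.32 (limma, adjusted p = 7.46e-06 and 0.000476). The HOMO mKO response of Lox at 21 dpi minus that at 7 dpi was -1.23 ± 0.45, just short of a call (adjusted p = 0.0556). It passed without HOMO mKO AAV 3 dpi replicate 4 (0.0408), HOMO mKO AAV 7 dpi replicate 4 (0.0433), HOMO mKO AAV 21 dpi replicate 1 (0.0417), HOMO mKO saline 21 dpi replicate 3 (0.0473), HET mKO AAV 7 dpi replicate 2 (0.0446) or WT AAV 3 dpi replicate 3 (0.045).

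Loxl2 (chromosome 14, 69609068 to 69695834, plus strand), a relative of Lox that cross-links basement-membrane collagen, was called at 7 dpi in HET mKO muscle and not in HOMO mKO muscle, although the difference between the genotypes was itself not called. An antisense gene in the table, Gm27177, overlaps it, and without knowing whether the counting used strand, reads of the pair cannot be told apart. At 7 dpi Loxl2 had 27.9, 47.0, 41.3 and 27.3 normalised read counts in HET mKO AAV muscles, against 18.2, 15.4, 15.4 and 11.3 with saline, and rose by 1.18 ± 0.22 (limma, adjusted p = 3.51e-05). HOMO mKO muscles on that day had 31.4, 22.3, 24.4, 21.8 and 26.3 with AAV and 22.6, 17.2, 19.3 and 15.5 with saline, which overlapped and was not called (0.42 ± 0.21, adjusted p = 0.103, and 0.0195 in a fit of the compared groups alone). The difference of the HOMO mKO and HET mKO responses was -0.76 ± 0.31 (adjusted p = 0.203). At 3 dpi Loxl2 had 32.7, 57.4, 48.9 and 26.1 in HOMO mKO AAV muscles, against 27.2, 18.0, 32.2 and 23.0 with saline, and the change of 0.66 ± 0.22 was called (limma, adjusted p = 0.0178) although the groups overlapped. It was lost without HOMO mKO saline 3 dpi replicate 2 (0.52, adjusted p = 0.0935), without HOMO mKO AAV 3 dpi replicate 2 (0.48, adjusted p = 0.113) and without HOMO mKO AAV 3 dpi replicate 3 (0.56, adjusted p = 0.0779). In WT muscle at 21 dpi Loxl2 had 20.5, 14.7, 24.8 and 31.1 with AAV, against 7.52, 9.26, 12.2 and 14.7 with saline (0.99 ± 0.22, adjusted p = 0.000391), while HOMO mKO muscle gave 0.33 ± 0.22 (adjusted p = 0.203).

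Within the lysyl oxidase family the share of Lox, per kilobase of exon, was 41.2 ± 6.38% in HOMO mKO AAV muscles at 3 dpi, against 14.8 ± 1.86% with saline (SD, n = 4 each). At 7 dpi it was 41.0 ± 3.63% in HOMO mKO AAV muscles, against 13.6 ± 1.7% with saline (n = 5 and 4), and 29.5 ± 7.38% in HET mKO AAV muscles, against 13.1 ± 1.57% (n = 4 each). In WT AAV muscles at 21 dpi the share was 19.9 ± 6.97%, against 14.3 ± 3.35% with saline. Loxl2 held 15.1 ± 2.2% in HOMO mKO AAV muscles at 7 dpi, against 33.5 ± 2.43% with saline, and 26.3 ± 2.74% in HET mKO AAV muscles, against 36.3 ± 2.22%. Loxl1, the paralog known for elastic fibres, rose in all of these comparisons, for instance by 1.32 ± 0.19 in HOMO mKO muscle at 7 dpi (limma, adjusted p = 5.18e-07). The summed level of the family was 36.1 ± 12.9 per kilobase in HOMO mKO AAV muscles at 3 dpi, against 12.1 ± 2.24 with saline, and 31.1 ± 4.31 at 7 dpi, against 10.3 ± 1.09.

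**Figure D4:**
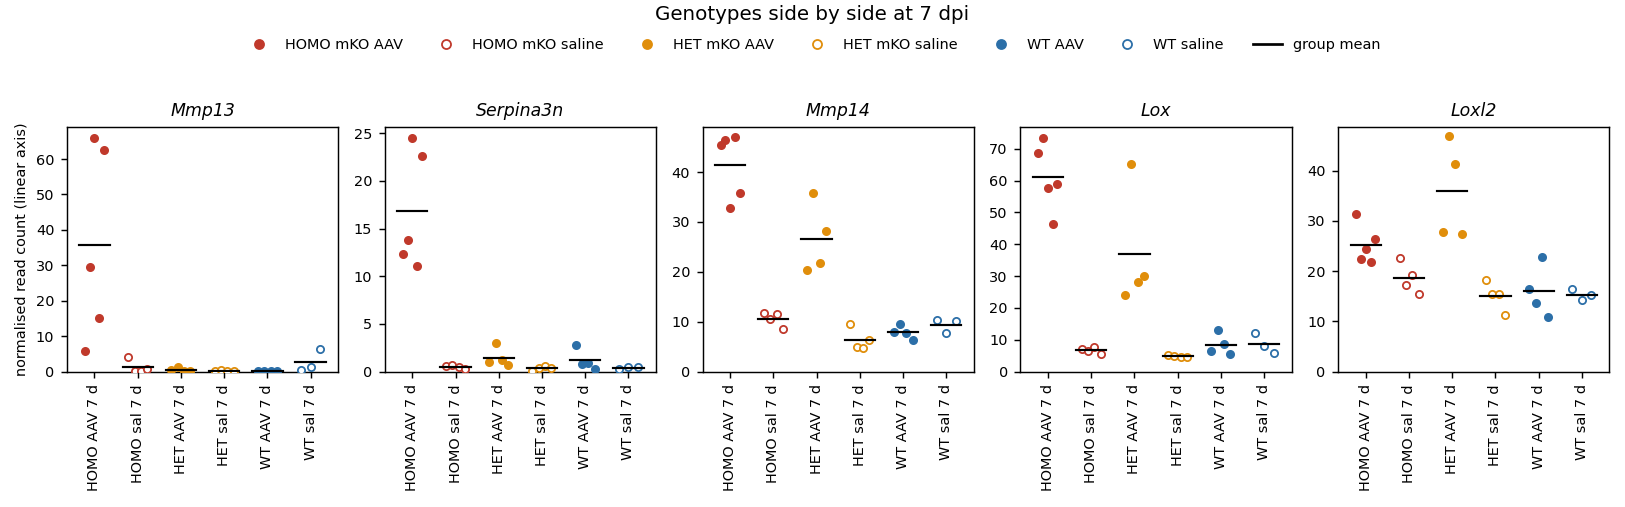
Normalised read counts (linear axes) of Mmp13, Serpina3n, Mmp14, Lox and Loxl2 at 7 dpi in HOMO mKO, HET mKO and WT muscles with AAV (filled) or saline (open); points are muscles and bars group means. Mmp13 and Serpina3n have their highest points in HOMO mKO AAV muscles, Mmp14 and Lox are high in HOMO mKO and HET mKO AAV muscles, and Loxl2 has its highest points in HET mKO AAV muscles.

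Adamts8, an ADAMTS-family proteoglycanase (chromosome 9, 30942562 to 30963838, plus strand), differed between genotypes in saline muscle and was called by limma in no comparison of AAV with saline. It is overlapped by an antisense gene, Gm29724, not analysed here. In saline muscles at 3 dpi it had 3.98, 0.841, 2.64 and 2.23 normalised read counts in HOMO mKO samples, against 31.2, 16.8 and 18.0 in WT samples. At 7 dpi the HOMO mKO saline muscles had 1.14, 0.784, 0.384 and 1.55, against 15.1, 18.2 and 3.48 in WT, and at 21 dpi 1.67, 0.436, 1.76 and 0.458, against 6.8, 9.65, 5.94 and 10.1. On each day every HOMO mKO saline muscle lay below every WT saline muscle. Adamts8 was lower in HOMO mKO saline muscle by limma at 3 dpi (-2.78 ± 0.48, adjusted p = 0.000298), 7 dpi (-2.54 ± 0.48, adjusted p = 0.000976, 0.109 with voom) and 21 dpi (-2.17 ± 0.45, adjusted p = 0.00146, 0.0955 with voom). It was the 1 member called in these comparisons on each day, when 2.28%, 2.08% and 3.32% of all tested genes were called and 0.576%, 0.453% and 0.722% were called lower. At 7 dpi the count was 2 without WT AAV 21 dpi replicate 2, where Timp2 was called too (adjusted p = 0.0435).

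HET mKO saline muscles at 7 dpi had 26.0, 10.2, 4.08 and 4.12 of Adamts8, a wide spread that covered the WT values of 3.48 to 18.2, and the difference from WT was -0.24 ± 0.48 (limma, adjusted p = 1.0). In that comparison limma called 0 of the 10 genes and 0.2% of all tested genes, 2 of the 10 had an unadjusted p under 0.05, and edgeR, DESeq2 and voom called 0. HOMO mKO AAV muscles had 0.474 to 1.88 at 3 dpi, 0.637 to 0.912 at 7 dpi and 0.936 to 1.03 at 21 dpi, with changes of -0.57 ± 0.45, -0.07 ± 0.43 and -0.01 ± 0.45 (limma, adjusted p = 0.341, 0.91 and 0.99). HET mKO AAV muscles had 7.81, 3.31, 4.5 and 2.54, and the change of -0.85 ± 0.45 (adjusted p = 0.126) was called by edgeR alone (-1.29, adjusted p = 0.0483). Adamts15, a related family member, was not called, and its HOMO mKO minus WT saline differences were 0.22, 0.07 and -0.09 at 3, 7 and 21 dpi. Of the 13 ADAMTS genes tested, Adamts8 alone was called in these saline comparisons.

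**Figure D5:**
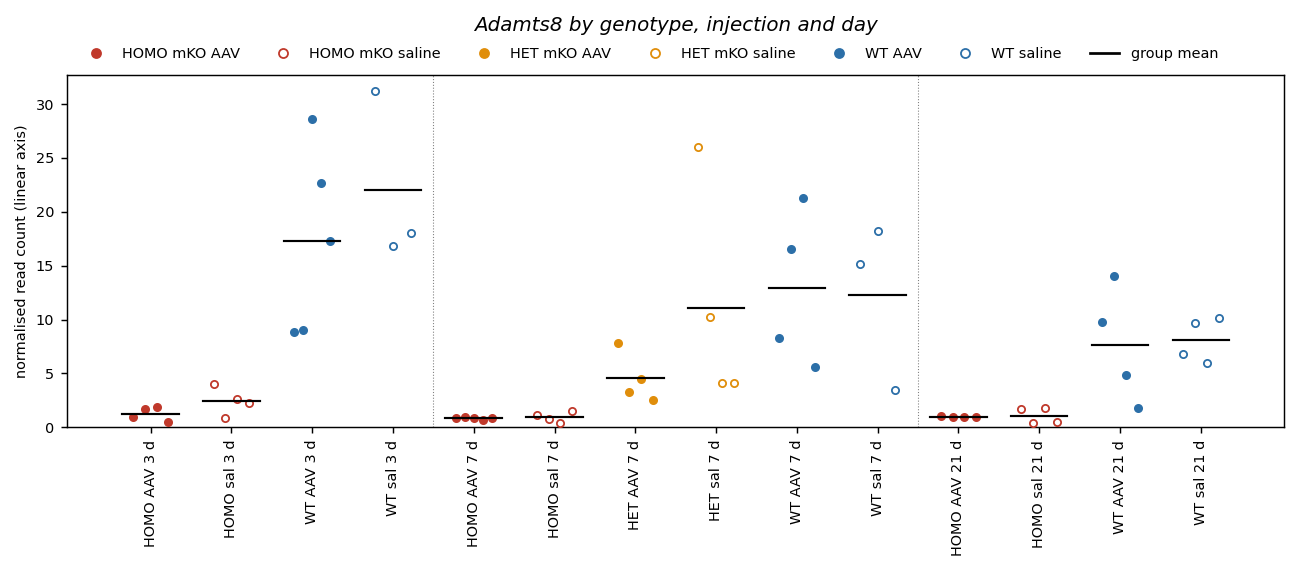
Normalised read count of Adamts8 (linear axis) in each muscle by genotype, injection and day, with bars at the group means. Every HOMO mKO muscle lies at 3.98 or below, while WT muscles reach 31.2 and HET mKO muscles 26.0. The ranges over all groups overlap, as WT AAV muscles at 21 dpi go down to 1.79 and HET mKO AAV muscles to 2.54.

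Taking the genotypes together at 7 dpi, 7 of the 10 genes responded more in HOMO mKO than in WT muscle, where 20.2% of all tested genes were called and 9.29% were called higher. The 7 include Mmp13, which the filter on low values obliged to differ between groups. So do the later counts in which Mmp13 is named, all of which involve HOMO mKO AAV muscle at 7 dpi. In HET mKO muscle 6 of the 10 responded more than in WT muscle, again with 20.2% called and 10.3% called higher. Mmp13 and Serpina3n were the members called between HOMO mKO and HET mKO responses, both higher in HOMO mKO, beside 3.24% of all tested genes called and 0.699% called higher. Serpinb1a joined them with a pseudocount of 4 (adjusted p = 0.0396) and with per-library weights (0.0395). At 3 dpi, 4 of the 10 (Timp1, Serpinb1a, Lox and Serpina3n) responded more in HOMO mKO than in WT muscle, beside 9.75% of all tested genes called and 5.39% called higher. At 21 dpi limma called 0 of the 10 and 5.62% of all tested genes, with 2 members at an unadjusted p under 0.05 and 0 called by edgeR, DESeq2 or voom. Per-library weights called 1, and so did the fit without HOMO mKO AAV 21 dpi replicate 4. Between days, 5 of the HOMO mKO responses were larger at 7 dpi than at 3 dpi (Mmp13, Serpina3n, Mmp14, Mmp2 and Timp2), beside 5.96% of all tested genes called and 2.8% called higher. At 21 dpi against 7 dpi, 1 was larger (Timp2) and 2 smaller (Mmp13 and Serpina3n), beside 13.8% of all tested genes called, 7.54% higher and 6.27% lower. The count was 1 in place of 3 without HOMO mKO AAV 7 dpi replicate 3 or HOMO mKO AAV 21 dpi replicate 3. In WT muscle 8 responses were larger at 21 dpi than at 7 dpi, beside 19.2% of all tested genes called and 10.5% called higher, and the largest of the 8 was that of Serpinb1a (3.19 ± 0.56, limma, adjusted p = 0.000118, and 0.074 with voom). That count of 8 was 4 without WT AAV 7 dpi replicate 4 or WT saline 21 dpi replicate 1, and 5 without WT saline 7 dpi replicate 1 or 3 or WT AAV 21 dpi replicate 3 or 4. These comparisons of days and genotypes share control samples, so they are not independent of each other. In saline muscles limma called 0 of the 10 between 21 and 3 dpi in HOMO mKO or in WT samples (0.0768% and 0.0% of all tested genes). In each of these 2 comparisons 3 members had an unadjusted p under 0.05. EdgeR and voom called 0 in both, and DESeq2 called 2 in HOMO mKO and 0 in WT.

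The families to which the members belong were counted from lists of known genes, to be read against the 17.4%, 20.6% and 29.7% of all tested genes called higher in HOMO mKO AAV muscle at 3, 7 and 21 dpi. The lists were also chosen with earlier results of these data known, so their counts are descriptions. Of 11 matrix metalloproteinases tested, 3 rose and 1 fell in HOMO mKO AAV muscle at 3 dpi, 7 rose and none fell at 7 dpi, and 6 rose and 1 fell at 21 dpi. The median log2 change of the list at 7 dpi was 0.90, beside -0.01 over all tested genes. The count and the median at 7 dpi include Mmp13, which passed the filter on low values only through that group. Mmp3 (stromelysin-1), which had the smallest p of that family at 7 dpi, rose by 2.63 ± 0.27 in HOMO mKO (limma, adjusted p = 2.66e-10) and by 0.82 ± 0.28 in HET mKO muscle at 7 dpi (adjusted p = 0.0176), with a difference between them of 1.81 ± 0.39 (adjusted p = 0.00266). Mmp12, the macrophage elastase, rose at 3 dpi (1.44 ± 0.33, adjusted p = 0.000655) and not by the test at 7 dpi (0.64 ± 0.31, adjusted p = 0.0915). It passed the filter on low values only through WT AAV muscle at 21 dpi, with 4.88 CPM there and 0.884 CPM over the other 52 samples. Mmp15, a membrane-type enzyme, fell at 3 dpi (-0.54 ± 0.12, adjusted p = 0.00045). Among 13 ADAMTS proteases 1, 7 and 9 rose in HOMO mKO AAV muscle at 3, 7 and 21 dpi and none fell. Those named by the smallest p were the aggrecanase Adamts4 at 3 dpi (1.43 ± 0.30, adjusted p = 0.000207), the procollagen N-proteinase Adamts2 at 7 dpi (1.12 ± 0.17, adjusted p = 6.88e-07) and Adamts20 at 21 dpi (2.34 ± 0.32, adjusted p = 3.11e-08).

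Of 16 serpins tested, 5, 8 and 12 rose and 1 fell in HOMO mKO AAV muscle at 3, 7 and 21 dpi. The last count includes Serpina3f, which passed the filter on low values only through that group. Serpina3g, a neighbour of Serpina3n in the same cluster, rose late, by 4.35 ± 0.33 in HOMO mKO (limma, adjusted p = 1.93e-14) and 3.30 ± 0.33 in WT muscle at 21 dpi (adjusted p = 2.37e-10), and gave 0.23 ± 0.33 in HOMO mKO muscle at 3 dpi (adjusted p = 0.622). Reads shared between these paralogs could have been divided by the counting. Among 23 plasminogen-pathway and other matrix-degrading proteases, 10, 12 and 16 rose and 2, 1 and 1 fell. The lysosomal collagenase Ctsk rose at 7 dpi (1.84 ± 0.16, limma, adjusted p = 1.65e-11) and was 0.28 ± 0.17 at 3 dpi (adjusted p = 0.205), while cathepsin S (Ctss) rose already at 3 dpi (3.54 ± 0.46, adjusted p = 1.35e-07). Of 18 matrix substrates, 9 rose and 2 fell at 3 dpi and 14 rose and none fell at 7 dpi. Col1a1 was raised by 2.40 ± 0.32 at 7 dpi (adjusted p = 8.8e-08) and Col3a1 by 2.12 ± 0.24 (adjusted p = 5.21e-09). Among 14 genes of collagen processing 9, 7 and 8 rose on the 3 days and 1, 1 and 2 fell.

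Markers of other cell types moved with these responses. Their lists too were chosen with earlier results of these data known, and their counts are to be read against all tested genes. In HOMO mKO AAV muscle 34.6%, 43.1% and 59.3% of these were called in either direction at 3, 7 and 21 dpi, and 17.4%, 20.6% and 29.7% were called higher. The 2 shares were 40.4% and 19.6% in HET mKO AAV muscle at 7 dpi, and 40.9% and 19.7% in WT AAV muscle at 21 dpi. Of 12 macrophage markers, 11, 11 and 12 rose in HOMO mKO AAV muscle at 3, 7 and 21 dpi, 10 in HET mKO AAV muscle at 7 dpi and 11 in WT AAV muscle at 21 dpi. Their summed level in HOMO mKO AAV muscles was 312 to 806 at 3 dpi, against 69.3 to 158 with saline, 267 to 429 at 7 dpi, against 69.5 to 106, and 246 to 1983 at 21 dpi, against 41.5 to 95.0. HET mKO AAV muscles had 205 to 370 at 7 dpi, against 62.2 to 101 with saline, and WT AAV muscles 261 to 759 at 21 dpi, against 64.6 to 79.5. WT AAV muscles had 117 to 260 at 3 dpi, against 86.8 to 90.6 with saline, and 67.0 to 130 at 7 dpi, against 66.2 to 100. Of 11 neutrophil markers 2 were in the table, Csf3r and Retnlg, with a summed level of 1.07 to 6.41 in HOMO mKO AAV muscles at 3 dpi, against 0.323 to 0.714 with saline. That sum was nearly all Csf3r, which averaged 4.02, against 0.333 with saline. Retnlg, near the floor, averaged 0.14, against 0.158. Of 9 markers of fibroblasts and fibro-adipogenic progenitors, none rose and 2 fell in HOMO mKO AAV muscle at 3 dpi, 4 rose and 1 fell at 7 dpi, and 5 rose and 1 fell at 21 dpi. The 10 fast-fibre markers fell in 9 cases on each of these days. Of 7 endothelial markers 4, 6 and 6 fell in HOMO mKO AAV muscle at 3, 7 and 21 dpi, 5 in HET mKO AAV muscle at 7 dpi and 6 in WT AAV muscle at 21 dpi, and none rose. Their summed level at 21 dpi was 121 to 225 in HOMO mKO AAV muscles, against 293 to 361 with saline, and 182 to 325 in WT AAV muscles, against 344 to 428. Among 8 markers of myofibroblasts and smooth muscle 2, 2 and 3 rose and 2, 2 and 3 fell in HOMO mKO AAV muscle on the 3 days, Postn and Cthrc1 being among those that rose and Rgs5, a mural cell marker, among those that fell. The 8 markers of T and natural killer cells summed to 34.2 to 126 in HOMO mKO AAV muscles at 21 dpi, against 1.12 to 1.53 with saline, and to 13.6 to 68.9 in WT AAV muscles, against 0.556 to 1.91. At 7 dpi that sum was 2.44 to 11.6 in HOMO mKO AAV muscles, against 0.661 to 1.79 with saline, and at 3 dpi 0.821 to 2.11, against 0.685 to 1.08. The 6 of these genes tested passed the filter on low values only through HOMO mKO AAV muscle at 21 dpi, so their levels are given without a count of calls. Of 6 satellite cell and myoblast markers, 2, 2 and 5 rose in HOMO mKO AAV muscle on the 3 days, and 1, 0 and 0 fell. Of 5 tendon markers 2, 3 and 2 rose and 0, 0 and 1 fell. Fabp4, listed as an adipocyte gene, fell at 7 and 21 dpi. It averaged 153 in HOMO mKO saline muscles at 7 dpi, where the adipocyte genes Adipoq, Plin1 and Cidec averaged 1.53, 0.954 and 0.648. In HOMO mKO AAV muscles on that day Fabp4 averaged 113, and Adipoq, Plin1 and Cidec averaged 0.782, 0.825 and 0.41. The part of adipocytes in the fall of Fabp4 was not tested. The part of these cell populations in the changes of the members was not tested. In bulk tissue a change in the number of cells of a type and a change in RNA per cell cannot be told apart.

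Across the 14 group means of log2 values, the tested genes whose profile was most like that of each member were found by Pearson's r over 13017 genes, as a description of groups that share AAV and day. Timp1 was nearest to Itgam (r = 0.985), Lgmn and C5ar1, genes known from myeloid cells, and Serpinb1a was nearest to Lgmn (r = 0.985), Aldh1a2 and B4galt5. Timp1 and Serpinb1a were also close to each other (r = 0.962). Serpina3n was nearest to Socs3 (r = 0.970), a feedback inhibitor of cytokine signalling, then Bmper and Pkig. Mmp14 was nearest to Fndc3c1 (r = 0.975), Ctsk and Tspo. Mmp2 was nearest to Hist1h2bc (r = 0.972), Islr and Adamts12, and Loxl2 to Abca9 (r = 0.930), Lamc1 and Fbn1. Lox was nearest to Ms4a4a (r = 0.974), Fkbp10 and S100a16, and Timp2 to Hes6 (r = 0.985), Myh3 and Zfp365. Mmp13 had the weakest nearest neighbour of the 10, Map2k1 (r = 0.899), before Nucks1 and Hfe. Adamts8 was nearest to Slc25a39 (r = 0.962), Plin3 and Aifm2.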

How the data were processed

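Total RNA of mouse tibialis anterior was sequenced from 56 muscles in 14 groups of 3 to 5, grouped by their titles. Per the labels' protocols, bead lysis and TRI reagent gave the RNA, and a directional kit gave the libraries. Per the submitters' processing notes the authors used FastQC, Bowtie, RSEM and limma with GRCm38/mm10; the versions and the use of strand in counting are not given in the sources used here. By design, RSEM estimates how reads that match several genes divide among them.

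The authors deposited 1 table of 14871 genes as a linear signal: reads plus 0.5 over an effective library size, as counts per M reads (CPM). Whole reads were recovered for 99.999% of values within 0.02 reads, and 0 columns lacked a sample. Depth was 6.9 to 27.18 M reads, so low genes carry the larger counting error.

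The test was limma 3.58.1 (R 4.3.3) on log2(value + 1), with all 56 samples, a mean for each group and a trend on mean level. Genes had to average 1 CPM to be tested (13017, with 1853 left out), and the 21 comparisons were each adjusted by Benjamini-Hochberg over all genes tested. Calls have an adjusted p under 0.05. Alternatives were pseudocounts of 0.25 and 4, no filter and a minimum of 5 CPM, quantile and median-of-ratios scaling, edgeR 4.0.16 and DESeq2 1.42.0 and voom on recovered reads, only the groups compared, per-library weights, each library left out, and the replicate number as a block. The fit was tested on simulated data. Numbers paired the samples by their deviations (r over 0.1 for each pair) in HET mKO at 7 dpi (0.128 to 0.178) and HOMO mKO at 21 dpi (0.165 to 0.233), and in no other genotype and day; in those 2 comparisons the block changed no call of a member.

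Coordinates and overlapping genes are from GENCODE M21 (GRCm38), and promoter sequences from RefSeq. Besides the 10 members, up to 4 genes per list with the smallest p and the 3 most like genes of each member are named. Members and lists were chosen with earlier results of these data known.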

Additional observations from a re-analysis of the deposited data

Results flagged for a closer look

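Of 120 groups of 4 or 5 samples checked over the 10 members, 4 held a sample far from the others, where chance gives about 1 in 20. Mmp13 was low in HOMO mKO saline 21 dpi replicate 1 (0.198 normalised read counts), and Timp1 was low in HOMO mKO saline 7 dpi replicate 2 (0.166). Timp2 was low in HOMO mKO AAV 7 dpi replicate 3 (120.0), and Adamts8 was low in HOMO mKO AAV 7 dpi replicate 4 (0.637).

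Of 80 tests of a difference between responses, 35 passed an adjusted p of 0.05 in limma. The tests share groups, and the 35 include calls of Mmp13, which the filter obliged to differ between groups. Of all tested genes, 9.75%, 20.2% and 5.62% were called for HOMO mKO minus WT at 3, 7 and 21 dpi. The share was 20.2% for HET mKO minus WT and 3.24% for HOMO mKO minus HET mKO. For the comparisons of days it was 5.96%, 13.8% and 19.2%, in the order given below. The values that follow are differences of log2 responses. HOMO mKO minus WT responses at 3 dpi were 3.64 for Timp1, 2.81 for Serpinb1a, 2.29 for Lox and 1.5 for Serpina3n. At 7 dpi the HOMO mKO minus WT differences were 5.22 for Mmp13, 3.36 for Serpinb1a, 3.07 for Lox, 3.0 for Serpina3n, 2.43 for Timp1, 2.1 for Mmp14 and 0.8 for Mmp2. HET mKO minus WT responses at 7 dpi were 2.67 for Lox, 2.15 for Mmp14, 1.93 for Serpinb1a, 1.16 for Loxl2, 0.88 for Mmp2 and 0.64 for Timp2. Between HOMO mKO and HET mKO the differences were 3.6 for Mmp13 and 2.73 for Serpina3n.

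Between days, HOMO mKO responses at 7 dpi minus those at 3 dpi were 3.35 for Mmp13, 1.65 for Serpina3n, 1.37 for Mmp14, 1.36 for Mmp2 and 0.55 for Timp2. At 21 dpi minus 7 dpi they were 0.5 for Timp2, -1.1 for Serpina3n and -3.58 for Mmp13. WT responses at 21 dpi minus those at 7 dpi were 3.19 for Serpinb1a, 2.33 for Timp1, 1.62 for Mmp14, 1.47 for Lox, 1.05 for Serpina3n, 0.97 for Loxl2, 0.76 for Mmp2 and 0.62 for Timp2.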

How the results depend on the processing

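No member changed direction past the threshold under any setting. The count of members called was 8, 7 and 8 in HOMO mKO at 7 dpi, HOMO mKO at 21 dpi and WT at 21 dpi whichever library was left out. Over all single omissions it ranged between 4 and 6 in HOMO mKO at 3 dpi, 7 and 8 in HET mKO at 7 dpi, 4 and 5 for HOMO mKO minus WT at 3 dpi, 6 and 8 at 7 dpi and 0 and 1 at 21 dpi. For HET mKO minus WT it was 6 to 7, for HOMO mKO minus HET mKO 2 throughout, for HOMO mKO 7 dpi minus 3 dpi 4 to 5, for 21 dpi minus 7 dpi 1 to 4 and for WT 21 dpi minus 7 dpi 4 to 8. In saline muscle HOMO mKO minus WT gave 1, 1 to 2 and 1 on the 3 days. WT at 3 and 7 dpi and the other saline comparisons gave 0 throughout.

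Voom lost 19 calls of members and gained none. It called 7 in HET mKO at 7 dpi, 5 for HOMO mKO minus WT and 5 for HET mKO minus WT at 7 dpi, 2 for HOMO mKO minus WT at 3 dpi, 0 for HOMO mKO minus HET mKO, 3 for HOMO mKO 7 dpi minus 3 dpi, 1 for 21 dpi minus 7 dpi, 3 for WT 21 dpi minus 7 dpi, and 0 for HOMO mKO minus WT saline at 7 and at 21 dpi. A minimum of 5 CPM, under which Mmp13 and Serpina3n are not tested, gave 0 for HOMO mKO minus HET mKO, 3 for 7 dpi minus 3 dpi and 1 for 21 dpi minus 7 dpi. Mmp13 and Serpina3n were both called in each of these comparisons in the main fit, so leaving them out lowers these counts. EdgeR and DESeq2 each gave 1 for HOMO mKO minus HET mKO, and DESeq2 gave 2 for HOMO mKO saline at 21 dpi minus 3 dpi. The groups compared alone gave 5 for WT 21 dpi minus 7 dpi and 2 for HOMO mKO minus WT saline at 21 dpi. Per-library weights gave 1 for HOMO mKO minus WT at 21 dpi, 2 for saline at 7 and at 21 dpi, and 1 for HOMO mKO saline over time. The replicate block gave 5 for WT 21 dpi minus 7 dpi. Samples of the same number had r of -0.133 to 0.311 in WT at 7 dpi and 0.040 to 0.077 at 21 dpi. Whether the numbers pair those samples is therefore not settled. The block could not be fitted to the saline comparisons. The cause of these shifts was not tested, other than the smaller number of genes under the stricter minimum.

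Quantile scaling moved the median of all genes in HOMO mKO at 21 dpi to -0.12, and the share of calls that were higher there was 40.7% in place of 50.1%. Over all genes, where limma called 0 in WT at 3 and 7 dpi, DESeq2 called 8 and 7. Per-library weights called more genes in all, 2944 in place of 1269 for HOMO mKO minus WT at 3 dpi, 2269 in place of 732 at 21 dpi, 895 in place of 422 for HOMO mKO minus HET mKO, and 834, 757 and 1119 in place of 297, 271 and 432 for HOMO mKO minus WT saline at 3, 7 and 21 dpi. The compared groups alone called 121 in place of 732 for HOMO mKO minus WT at 21 dpi and 615 in place of 1798 for HOMO mKO 21 dpi minus 7 dpi. Members below about 1 normalised count rest on few reads, which limits Mmp13 outside HOMO mKO AAV muscle at 7 dpi.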
